A study of Mus musculus with 3 samples.

Results

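The stomach tumour array compared gastric cancer tissue of a transgenic mouse with the nontumour gastric tissue of the same mouse, both hybridised to a single 2-colour mouse array. It is 1 of 3 samples in the series, which also names a liver tumour set against nontumour liver of its own transgenic mouse and a lung tumour set against wild-type lung. From each tissue 500 ng of total RNA was amplified and given Cy3 or Cy5. All gene spots of the stomach array's scanner file were used, with both channels, and control spots were left out. The labels give no promoter for the transgene, and no strain, sex or age, and both stomach tissues carry the transgene, so no wild-type stomach enters the comparison. There was 1 array, with no replicate and no dye swap, so every difference below lacks a replicate check and a p-value.

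The sources disagree on which channel held the tumour. The dye labels put the gastric cancer in Cy3 and the nontumour tissue in Cy5, whereas the authors' deposited table lists spots brighter in Cy5 under its heading for genes raised in the tumour. The direction is thus not settled. Ratios below are log2(Cy5/Cy3), a gene brighter in Cy5 is termed Cy5-high, and one brighter in Cy3 is termed Cy3-high. A scanner error printed after a ratio belongs to the scanner software's own ratio of that gene, which differs from the ratio printed, most of all for dim genes. By the authors' headings Cy5 held the tumour and Cy3 the nontumour stomach, and by the dye labels the reverse.

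The glandular mouse stomach is lined by gastric units in which surface and neck cells make mucus and trefoil factors, parietal cells secrete acid through a potassium-dependent proton pump, chief cells secrete pepsinogen and other digestive proteins, and endocrine cells release gastrin, somatostatin, ghrelin and histamine. The forestomach of rodents is lined by a stratified, keratinised squamous epithelium, and the wall holds layers of smooth muscle. Loss of parietal cells in the mouse stomach is known to go with metaplasia of the gland base, in which cells make Tff2 and Clu, and the stomach can also take on genes of intestinal epithelium.

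The tissue was recognisable on both channels. Spots were measured as the mean pixel brightness of each probe, and the signals given below were corrected for background, normalised within the array and scaled between arrays. Of 41534 gene spots, 82.3% were well above background in Cy3 and 88.8% in Cy5. The median raw signal of gene spots was 171 in Cy3 and 163 in Cy5, against 119 and 68.4 over negative control spots. Markers of gastric lineage were bright in both channels. The pepsinogen gene Pgc had a signal of 131015 in Cy3 and 7508 in Cy5, the trefoil factor Tff1 82901 in Cy3 and 40031 in Cy5, and the gastrokine Gkn2 68385 in Cy3 and 42891 in Cy5, the last 2 with saturated Cy5 spots. On this array 19 genes had a saturated probe, 7 of them past 2-fold, and their saturated spots entered at the scanned value. Muc5ac was not matched to a probe of the design. Xist and the 4 measured Y-linked genes had ratios between -0.17 and 0.31.

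Of 25319 genes measured, 221 (0.873%) were brighter in Cy5 by 2-fold or more and 359 (1.42%) in Cy3 by as much, together 580 (2.29%). The median log2 ratio over all genes was 0.00, and 90% of the distribution lay between -0.44 and 0.46 (5th and 95th percentiles). The Cy3 side reached further. At 4-fold there were 99 Cy3-high genes and 16 Cy5-high genes, at 8-fold 37 and 1, and at 16-fold 10 and 0. Of the 2-fold genes, 38.1% were Cy5-high. This split depended on the normalisation: it was 51.0% with the scanner software's ratios and 81.2% with median centring and no loess curve, where 1017 genes were Cy5-high and 235 Cy3-high.

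**Figure D1:**
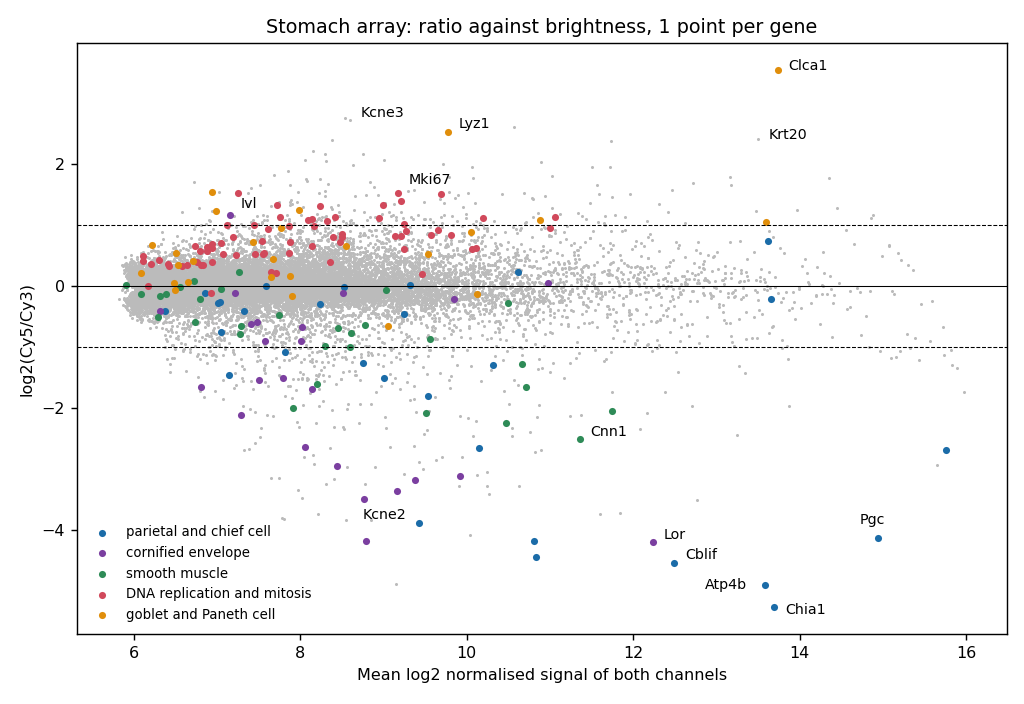
Log2(Cy5/Cy3) of every gene measured on the stomach array (vertical axis, log2 units) against the mean log2 normalised signal of both channels (horizontal axis), 1 point per gene, with 5 groups of listed genes in colour and dashed lines at 2-fold. Parietal and chief cell genes reach -5.26, cornified envelope and smooth muscle genes lie mostly below 0, and DNA replication and mitosis genes lie above 0 except Orc1 at -0.11 and Ccne2 near 0.

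The authors' deposited table held 1660 spots for the Cy5 side of this array and 1382 for the Cy3 side. They matched 1432 of the measured genes (5.66%) and 1195 (4.72%), with 4 genes in both lists. Of the 580 genes past 2-fold, 561 were in the list of their own direction and none in the other list. The listed ratios are the scanner software's own values for spots of this array, so the overlap is not an independent check. The largest scanner p-value of a listed spot was 0.01, and that p covers the measurement error of a spot only.

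Parietal cell genes included some of the lowest ratios of the array. Of 18 parietal cell markers measured, 9 were at least 2-fold Cy3-high, none Cy5-high; the median was -1.0. The proton pump exchanges potassium for protons and has a catalytic subunit, Atp4a, and a glycosylated subunit, Atp4b. Atp4a had a signal of 7647 in Cy3 and 422 in Cy5, and was 18.1-fold brighter in Cy3, at a log2 ratio of -4.18 (SD 0.19 between 2 probes). Atp4b, with a probe at chromosome 8, 13360529 to 13360588 in the file's coordinates, gave 67190.2 in Cy3 and 2241 in Cy5 and was 30.0-fold brighter in Cy3, at a log2 ratio of -4.91 (scanner error 0.41). Both pump subunits stayed well above background in the dimmer channel. Kcne2, the accessory subunit of the channel that returns potassium to the gland lumen, measured 2637 in Cy3 and 179.6 in Cy5, 14.7-fold brighter in Cy3. Kcnq1, the pore of that channel, measured 1993 in Cy3 and 811 in Cy5, a ratio of -1.30 (scanner error 0.20). Kcne2 and Kcnq1 form the channel together, and the accessory subunit had the larger difference of the pair.

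The other Cy3-high parietal genes were Clic6, a chloride channel relative at -2.65 (SD 0.30 between 2 probes), Slc4a2, the basolateral chloride and bicarbonate exchanger, at -1.80 (scanner error 0.23), and Slc26a9, an apical chloride transporter, at -1.26 (scanner error 0.22). Probes disagreed for the nuclear receptor Esrrg, at -1.51 (SD 1.48 between 2 probes), and for the potassium channel Kcnj16, at -1.46 (SD 1.06 between 3 probes). The remaining members lay within 2-fold. Carbonic anhydrase 2 (Car2), which surface cells also make, stood on the other side at 0.74 (scanner error 0.17). The receptors for histamine and gastrin, Hrh2 and Cckbr, had ratios of -0.26 and -0.00, Cckbr with signals of 193 in Cy3 and 193 in Cy5. With the 8 other settings of background, normalisation, filter and probe choice, 7 to 11 of the parietal genes were Cy3-high, and 1 was Cy5-high with median centring.

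Chief cell products showed the largest ratio of the array. Of 11 chief cell markers, 6 were at least 2-fold Cy3-high, none Cy5-high; the median was -1.07 and lay between -1.50 and -0.46 with the other settings. Chia1, an acidic chitinase, measured 81860.3 in Cy3 and 2137 in Cy5, 38.3-fold brighter in Cy3, at a log2 ratio of -5.26 (SD 0.26 between 2 probes). The Cy3 spot of 1 of its probes was saturated, and the other probe gave 33.7-fold. Cblif, gastric intrinsic factor, which binds vitamin B12, measured 27698 in Cy3 and 1195 in Cy5, 23.2-fold brighter in Cy3, at a log2 ratio of -4.53 (scanner error 0.38). In rodents both proteins come from chief cells. Pdia2, a protein disulfide isomerase, gave 8495 in Cy3 and 393 in Cy5, a ratio of -4.43 (scanner error 0.39), and Pgc stood at -4.13 (scanner error 0.35). Clps, the cofactor of pancreatic lipase, had a signal of 140619 in Cy3 and 21932 in Cy5, and was at least 6.41-fold brighter in Cy3, where its spot was saturated. Bhlha15 (Mist1), the transcription factor of mature chief cells, had a ratio of -1.07 (SD 1.39 between 2 probes), so its probes disagreed by more than the ratio itself. Lipf, gastric lipase, at -0.29, Pga5, another pepsinogen, at -0.41, and the secretory cell factor Xbp1, at -0.46, lay within 2-fold.

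Endocrine cell products leaned to Cy3, with 22 of 29 ratios below 0. Of the list of gastric and enteroendocrine genes, 8 were Cy3-high, none Cy5-high (2 with the scanner software's ratios); the median was -0.15. Chromogranin A (Chga), a protein of secretory granules, measured 11329 in Cy3 and 856 in Cy5, 13.2-fold brighter in Cy3, at a log2 ratio of -3.73 (scanner error 0.33). Ghrelin (Ghrl), the hunger hormone of the gastric body, gave 23439.8 in Cy3 and 2072 in Cy5 and was 11.3-fold brighter in Cy3, at a log2 ratio of -3.50 (SD 0.08 between 2 probes). Its 2 probes lay within 0.08 of each other in SD. Chromogranin B (Chgb) had a ratio of -3.09 (scanner error 0.30), Hdc, which makes histamine, -2.13 (scanner error 0.38), and somatostatin (Sst) -1.93 (scanner error 0.22). Gastrin (Gast), the hormone of the antrum that drives acid secretion, gave 706 in Cy3 and 691 in Cy5, a ratio of -0.03 (scanner error 0.18). Gast thus lay near 0 while 5 other products, from granule proteins to hormones, differed by over 3-fold. The hormones Cck (-0.05), Gcg (-0.19), Gip (0.22) and Pyy (-0.64 (SD 1.14 between 2 probes)) also lay within 2-fold.

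**Figure D2:**
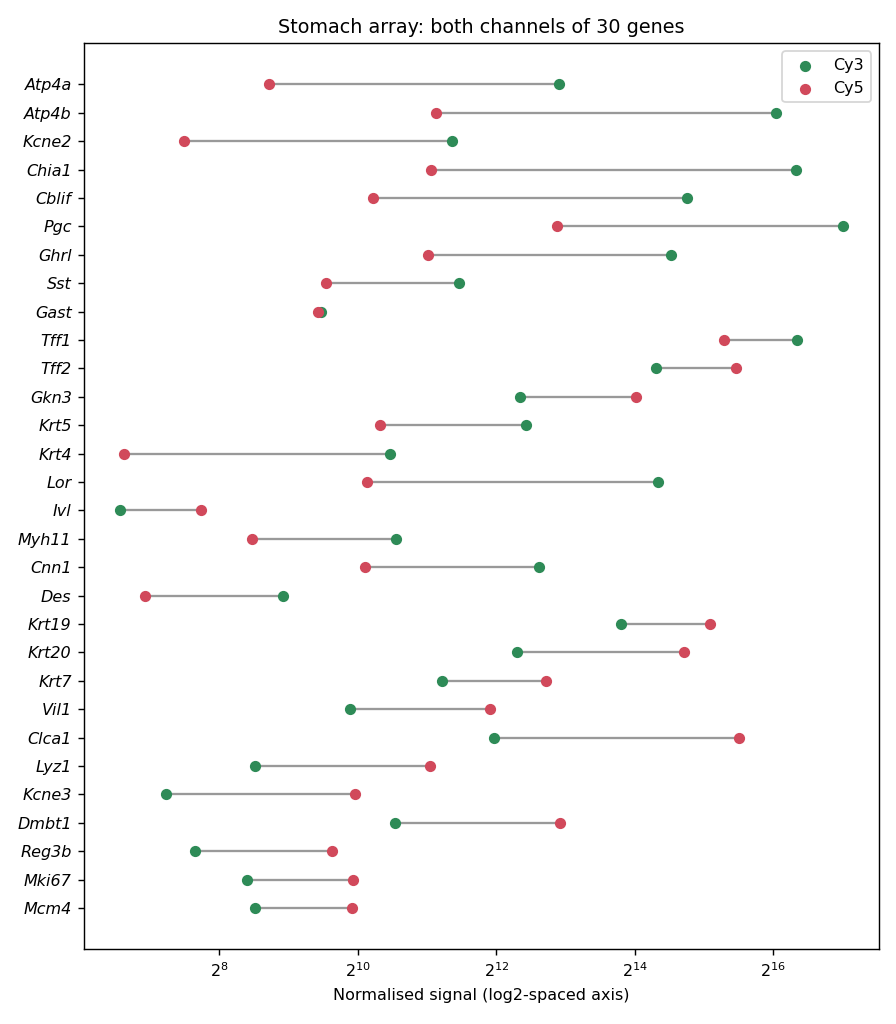
Normalised signal of 30 genes in Cy3 (green) and Cy5 (red) on the stomach array, horizontal axis spaced by log2, grey bars joining both channels of a gene. Parietal, chief, endocrine, squamous and muscle genes are brighter in Cy3, from Atp4a down to Des, apart from Gast, with nearly equal channels, and Tff2, Gkn3 and Ivl, which are brighter in Cy5; intestinal, secretory and cell cycle genes from Krt19 to Mcm4 are brighter in Cy5.

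Of 20 mucous cell genes measured, 3 were Cy5-high and 2 Cy3-high; the median was 0.24. This split did not hold with median centring, where 8 were Cy5-high, none was Cy3-high, and the median was 0.71. Tff2, the trefoil factor of mucous neck cells, measured 20187 in Cy3 and 45289.6 in Cy5. Its Cy5 spot was saturated, so it was at least 2.24-fold brighter in Cy5. Tff1, the trefoil factor of surface cells, measured 82901 in Cy3 and 40031 in Cy5. Its Cy5 spot was saturated too, so its ratio of -1.05 is a lower limit, and it was 0.29 with median centring. Gkn3, a gastrokine of the neck and antrum, gave 5214 in Cy3 and 16499 in Cy5 and a ratio of 1.66 (scanner error 0.21). The aspartic protease cathepsin E (Ctse) of surface cells stood at 1.24 (scanner error 0.19). The surface protein Psca was Cy3-high at -1.20 (scanner error 0.19). Genes that mark the mucous lineage more broadly lay near 0: Gkn1 at 0.20, Muc1 at 0.27, Muc6, the mucin of neck and antral gland cells, at -0.27, and the gastric claudin Cldn18 at 0.31.

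Markers of spasmolytic polypeptide-expressing metaplasia, named after the old name of Tff2, were mostly but not all shifted to Cy5. Of 12 measured, 6 were Cy5-high, none Cy3-high; the median was 1.06 against 0.00 over all genes. Dmbt1, a scavenger receptor protein secreted onto mucosae, measured 1487 in Cy3 and 7733 in Cy5, 5.20-fold brighter in Cy5, at a log2 ratio of 2.38 (scanner error 0.24). Clusterin (Clu), a secreted chaperone, measured 11346 in Cy3 and 38697 in Cy5, 3.41-fold brighter in Cy5, at a log2 ratio of 1.77 (scanner error 0.21). Mal2, which sorts proteins to the apical membrane, had a ratio of 1.22 (scanner error 0.19). The chloride channel Cftr had 1.60 (SD 1.62 between 2 probes), so its probes disagreed. Aqp5, a water channel, stood just under 2-fold at 0.96 (scanner error 0.18), and the glutathione peroxidase Gpx2 at 0.92 (scanner error 0.18). Below 0 lay 2 markers, Muc6 at -0.27 (scanner error 0.17) and the transcription factor Sox9 at -0.26 (SD 0.18 between 3 probes). Gkn3, Tff2, Aqp5 and Muc6 are also members of the mucous cell list. The number of metaplasia markers past 2-fold in Cy5 lay between 5 and 10 with the other settings.

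Genes of stratified squamous epithelium formed the other large block on the Cy3 side. Of 28 squamous keratin and adhesion genes, 16 were Cy3-high, none Cy5-high; the median was -1.41, and the count lay between 13 and 17 with the other settings. With median centring 3 members were Cy5-high. Krt5 and Krt14 pair in the basal layer, Krt4 and Krt13 in the upper layers of the forestomach and oesophagus, and Krt1 and Krt10 in keratinised layers. Krt5 gave 5505 in Cy3 and 1275 in Cy5, a ratio of -2.11 (scanner error 0.23). Krt14 gave 2738 in Cy3 and 895 in Cy5, a ratio of -1.61 (scanner error 0.21). Both basal keratins stayed well above background in Cy5. Krt4 gave 1414 in Cy3 and 98.9 in Cy5, 14.3-fold brighter in Cy3, at a log2 ratio of -3.84 (scanner error 0.40). Krt10 gave 3471 in Cy3 and 421 in Cy5, 8.25-fold brighter in Cy3, at a log2 ratio of -3.04 (SD 0.18 between 2 probes). Their partners were less certain: Krt13 had a mean ratio of -1.56 (SD 2.66 between 2 probes), which was 0.32 for its brightest probe alone, and Krt1 had -1.38 (SD 1.94 between 2 probes). Krt15, Krt16, Krt6a, Krt6b, Krt17 and Krt78 were also Cy3-high, between -2.06 and -1.04.

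Adhesion proteins of this epithelium followed the keratins in part. Pkp1, a desmosomal plaque protein, had a ratio of -2.43 (scanner error 0.26), Lypd3 -2.85 (scanner error 0.29), and Col17a1, a collagen of hemidesmosomes, -2.23 (SD 1.53 between 2 probes). The lineage factor Trp63 (p63) stood at -1.62 (SD 2.19 between 2 probes), with probes that disagreed. Desmoplakin (Dsp), which simple epithelium shares, had -0.15 (SD 0.17 between 4 probes). The hemidesmosome integrin Itgb4, also made by glandular cells, lay on the Cy5 side at 0.69 (SD 0.44 between 3 probes), and the tetraspan protein Perp on the Cy3 side at -0.82 (scanner error 0.17).

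Cornified envelope genes, which build the protein shell of dead surface squames, had 13 of 24 measured members Cy3-high and 1 Cy5-high; the median was -1.53. Loricrin (Lor), the main envelope protein, measured 20629 in Cy3 and 1122 in Cy5, 18.4-fold brighter in Cy3, at a log2 ratio of -4.20 (scanner error 0.36). Spink5, an inhibitor of the proteases that shed squames, measured 1877 in Cy3 and 103 in Cy5, 18.1-fold brighter in Cy3, at a log2 ratio of -4.18 (scanner error 0.41). Galectin 7 (Lgals7) had a ratio of -3.50 (scanner error 0.36), the calmodulin-like protein Calml3 -3.35 (scanner error 0.33), and Krtdap, a secreted keratinocyte peptide, -3.17 (SD 0.21 between 2 probes). Filaggrin (Flg), which bundles keratin, had -2.11 (scanner error 0.48), and Tgm1, the enzyme that crosslinks the shell, -1.54 (scanner error 0.39). Involucrin (Ivl), an early envelope precursor, was the exception, with 95.1 in Cy3 and 213 in Cy5, 2.24-fold brighter in Cy5, at a log2 ratio of 1.16 (scanner error 0.66). Sprr1a, a crosslinked small proline-rich protein, gave 1979.8 in Cy3 and 2053 in Cy5, a ratio of 0.05 (scanner error 0.17), next to its relative Sprr3 at -2.63 (scanner error 0.35).

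Many of these genes are neighbours on the genome. In the coordinates of the scanner file, for which no genome build was named in the sources read, the window from 92 to 93 Mb of chromosome 3 held 32 measured genes, of which 13 were Cy3-high and 1, Ivl, Cy5-high. The 13 were Lor, Kprp, Sprr2d, Sprr3 and 9 late cornified envelope (Lce1) genes. Close relatives within the Lce1 family can share hybridisation, so their separate values are uncertain. The adjoining window, from 93 to 94 Mb, added 6 Cy3-high genes, among them Flg, Rptn, Hrnr and Lce3f (ratio -3.83 (scanner error 0.38)), and 1 Cy5-high gene, the calcium-binding protein gene S100a10 (1.66 (scanner error 0.21)). The keratin clusters appeared in the same way. The window from 101 to 102 Mb of chromosome 15 held 7 Cy3-high genes of 31, 6 of them keratins, with Krt7 Cy5-high. The window from 100 to 101 Mb of chromosome 11 held 6 of 44, 5 of them keratins, with Krt19 Cy5-high. Over whole chromosomes, medians lay between -0.02 and 0.03 on the autosomes and X. Chromosome 3 had 2.81% of its genes Cy3-high.

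The 100 bases before the annotated start of 3 cornified envelope genes are shown. Lor and the exception, Ivl, lie on chromosome 3, and Krtdap lies on chromosome 7. They are taken from RefSeq's promoter windows on build GRCm38.p6, written 5′ to 3′ on the gene's strand, with the TATA box letters TATAAA and the AP-1 site letters TGAGTCA in capitals.
Lor: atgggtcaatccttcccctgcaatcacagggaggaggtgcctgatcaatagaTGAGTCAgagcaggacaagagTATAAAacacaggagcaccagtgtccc
Krtdap: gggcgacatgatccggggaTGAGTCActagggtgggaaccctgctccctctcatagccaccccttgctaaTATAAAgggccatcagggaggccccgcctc
Ivl: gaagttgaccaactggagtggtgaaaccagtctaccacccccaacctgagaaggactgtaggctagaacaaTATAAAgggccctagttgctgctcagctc
They lie at chr3:92083143-92083242 on the minus strand for Lor, chr7:30787805-30787904 on the plus strand for Krtdap and chr3:92573736-92573835 on the minus strand for Ivl. All 3 carry TATAAA, which starts 27 to 30 bases before the start. Within the windows of 250 bases before and 50 after the start, and counting either strand, TATAAA was present in 10 of the 20 list members with a window (50%) and in 15.7% of all 27025 genes with one. TGAGTCA was present in 6 of 20 (30%) and in 5.95% of all. The Ivl stretch shown has TATAAA and no TGAGTCA. Among all 2-fold genes with a window, TGAGTCA was present in 14.1% of the Cy5-high and 9.01% of the Cy3-high genes. TATAAA was present in 21.5% and 21.0%. These matches are descriptions of the sequence.

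Smooth muscle genes of the stomach wall lay on the Cy3 side. Of 30 measured, 27 had ratios below 0, 9 were Cy3-high, none Cy5-high; the median was -0.64. Calponin (Cnn1), an actin-binding protein of contractile cells, measured 6265 in Cy3 and 1102 in Cy5, 5.69-fold brighter in Cy3, at a log2 ratio of -2.51 (scanner error 0.25). Smooth muscle myosin heavy chain (Myh11) measured 1502 in Cy3 and 354 in Cy5, 4.25-fold brighter in Cy3, at a log2 ratio of -2.09 (scanner error 0.24). Both channels were well above background for these genes. Tropomyosin Tpm2 had a ratio of -2.24 (SD 0.01 between 2 probes), the myosin light chain Myl9 -2.04 (scanner error 0.22), desmin (Des), the intermediate filament of muscle, -1.99 (scanner error 0.32), and Tagln -1.65 (SD 0.04 between 2 probes). Smooth muscle actin (Acta2) stood under 2-fold at -0.87 (SD 0.77 between 4 probes), and the enteric form Actg2 at -0.28 (scanner error 0.17). The Cy3-high count lay between 6, with median centring, and 17, with the scanner software's ratios. In bulk tissue fewer cells of a type and less RNA per cell cannot be told apart, here or for the lists above.

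Genes of nerves and pacemaker cells in the wall did not show the shift of the muscle genes, but were dimmer as a list. Of 25 measured, 2 were Cy5-high and 1 Cy3-high; the median was -0.09. The neuropeptide Vip was at least 2.16-fold brighter in Cy3, a lower bound because its Cy5 spot was not well above background. Such a bound divides the bright signal by the larger of 2 values of the dim channel, the measured signal and the faintest one detected above background, and is open to dye bias. The summed signal of the nerve and pacemaker list was 3793 in Cy3 and 3951 in Cy5. That of the smooth muscle list was 31695 and 11336. With the offset used the ratio of a dim gene is understated, so a shift like that of the muscle could be missed here. Kit, the receptor of interstitial cells, had -0.34 (scanner error 0.39). The chloride channel Ano1, which those cells and secretory epithelium both use, was Cy5-high at 1.14 (scanner error 0.24), and the glial protein S100b at 1.15 (scanner error 0.38).

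Markers of other tissues that a stomach sample can hold were measured beside these groups, and their part in the differences was not tested. Of 16 fat cell genes, 5 were Cy3-high and 1 Cy5-high. The fat cell protease adipsin (Cfd) gave 839 in Cy3 and 59.4 in Cy5, 14.1-fold brighter in Cy3, at a log2 ratio of -3.82 (scanner error 0.50). The insulin-regulated glucose transporter Slc2a4 had -3.25 (scanner error 0.34) and lipoprotein lipase (Lpl) -2.77 (SD 1.05 between 2 probes), whereas the fat cell factor Pparg, which gut epithelium also makes, was Cy5-high at 1.05 (scanner error 0.18). Adiponectin (Adipoq) stood at -0.70 (scanner error 1.50), close to background in both channels. The summed signal of the fat list was 8555 in Cy3 and 5520 in Cy5. The pancreatic list had 5 of 16 members Cy3-high and 1 Cy5-high, with sums of 287316 and 44029. Most of both sums came from Pla2g1b and Clps, and Clps is also counted in the chief cell list.

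In the pancreatic list, the phospholipase Pla2g1b gave 141574 in Cy3 and 18618 in Cy5, a ratio of -2.93 (scanner error 0.26), and the lipase relative Pnliprp2 1082 in Cy3 and 80.9 in Cy5, a ratio of -3.74 (scanner error 0.42). Stomach itself can make Pla2g1b and Clps. Elastase 1 (Cela1) was Cy5-high at 1.11 (SD 0.13 between 2 probes), and carboxypeptidase B1 (Cpb1) was near 0 at -0.01 (scanner error 0.21). Of 17 skeletal muscle genes 2 were Cy3-high, Cox7a1, a cytochrome oxidase subunit of muscle, at -4.08 (scanner error 0.37), and the actin Acta1 at -1.07 (scanner error 0.39). Fast myosin Myh4 stood at -0.42 (scanner error 1.33), with signals of 103 in Cy3 and 76.8 in Cy5. Haemoglobin genes Hbb-bt and Hba-a1 had ratios of -1.85 (SD 0.73 between 4 probes) and -1.38 (SD 0.76 between 2 probes), and these genes have near-identical copies. Of 5 mesothelial genes measured, mesothelin (Msln) was alone in passing 2-fold, at 132 in Cy3 and 613 in Cy5, a ratio of 2.22 (scanner error 0.33), and the mesothelial protein Upk3b was near background at -0.16.

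**Figure D3:**
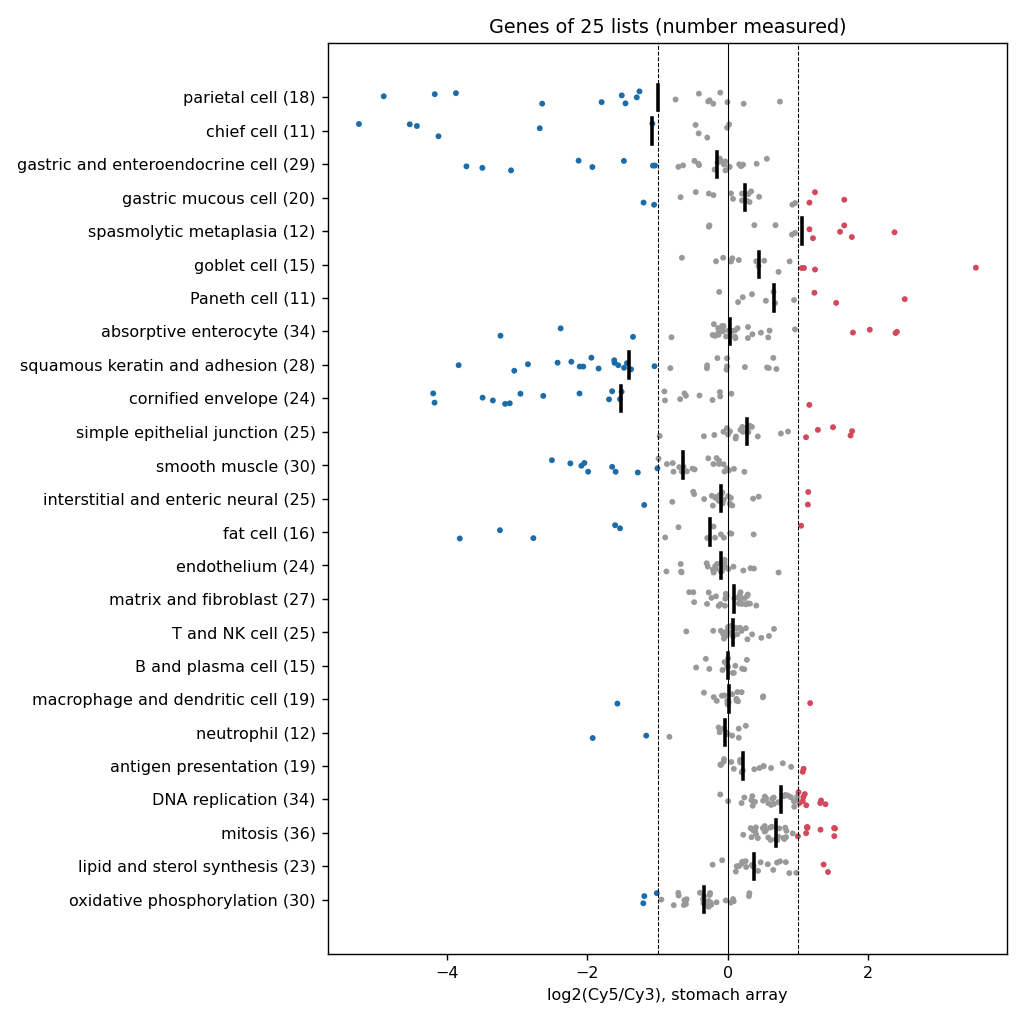
Log2(Cy5/Cy3) of each measured member of 25 gene lists on the stomach array (horizontal axis, log2 units), 1 point per gene, red at 2-fold Cy5-high, blue at 2-fold Cy3-high, with the list median as a black bar and the number measured in brackets. Parietal, chief, squamous, cornified and smooth muscle lists have medians from -1.53 to -0.64, metaplasia, DNA replication, mitosis and Paneth lists from 0.65 to 1.06, and endothelial, matrix and lymphocyte lists from -0.09 to 0.09.

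Intestinal secretory cell genes included the largest Cy5-high ratio of the array, that of Clca1. The medians of the goblet and Paneth cell lists were below those of the metaplasia, replication and mitosis lists. Of 15 goblet cell genes measured, 4 were Cy5-high, none Cy3-high; the median was 0.44. Clca1, a protein secreted with intestinal mucus, measured 4008 in Cy3 and 46589 in Cy5. Its Cy5 spot was saturated, so it was at least 11.6-fold brighter in Cy5. Its probe lies at chromosome 3, 144897653 to 144897712 in the file's coordinates. Muc4, a membrane mucin, had a mean ratio of 1.25 (SD 0.95 between 5 probes), Agr2, a disulfide isomerase needed for mucin folding, 1.06 (scanner error 0.18), and Galnt12, which starts mucin-type glycans, 1.09 (scanner error 0.18). The mucin that defines intestinal goblet cells was near background: Muc2 gave 98.2 in Cy3 and 103 in Cy5, a ratio of 0.07 (scanner error 1.03). Trefoil factor 3 (Tff3) stood at 0.44 (scanner error 0.35), the lectin-like Zg16 at 0.88 (scanner error 0.18) and the goblet factor Spdef at -0.65 (scanner error 0.19), all within 2-fold.

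Of 11 Paneth cell genes, 3 were Cy5-high, none Cy3-high; the median was 0.65. Lysozyme 1 (Lyz1), which Paneth cells secrete, measured 366 in Cy3 and 2106 in Cy5, 5.75-fold brighter in Cy5, at a log2 ratio of 2.52 (scanner error 0.27). Its relative Lyz2, the lysozyme of macrophages, had 1.18 (SD 0.93 between 2 probes), and the probes of the pair could share transcripts. Intelectin (Itln1), which binds microbial sugars, was at least 2.92-fold brighter in Cy5, a lower bound because Cy3 was not well above background. The phospholipase Pla2g2a had 1.24 (scanner error 0.67). The alpha-defensins measured, which define Paneth cells, were dim: Defa5 had 0.68 (scanner error 2.10) and Defa24 0.54 (scanner error 1.58). The Cy5-high count lay between 2 and 7 with the other settings.

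Absorptive cell genes split between the channels. Of 34 measured, 4 were Cy5-high and 3 Cy3-high; the median was 0.03. Keratin 20 (Krt20) measured 5023 in Cy3 and 26753 in Cy5, 5.33-fold brighter in Cy5, at a log2 ratio of 2.41 (scanner error 0.25). Villin (Vil1), which bundles actin in microvilli, measured 943 in Cy3 and 3841 in Cy5, 4.07-fold brighter in Cy5, at a log2 ratio of 2.03 (SD 0.03 between 2 probes). Slc9a3, which exchanges sodium for protons at the brush border, had 2.39 (scanner error 0.34), and galectin 4 (Lgals4), which links glycoproteins at the apical membrane, 1.79 (SD 0.00 between 2 probes). On the Cy3 side were Apoa1, the protein of high-density lipoprotein, with 978 in Cy3 and 103 in Cy5, a ratio of -3.24 (scanner error 0.37), the peptidase Anpep with -2.38 (scanner error 0.25), and the fructose transporter Slc2a5 with -1.35 (scanner error 0.44). The fatty acid carrier Fabp2, at 0.58 (SD 0.07 between 2 probes), and the alkaline phosphatase Alpi, at 0.47 (SD 0.54 between 2 probes), lay within 2-fold. The intestinal master factor Cdx2 gave 85.2 in Cy3 and 88.8 in Cy5, a ratio of 0.06 (scanner error 1.92), and Cdx1 was not among the genes measured.

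Ion transport genes of secreting crypt cells included the largest Cy5-high ratio after Clca1 among genes with a symbol. Kcne3, the accessory subunit that holds Kcnq1 open in intestinal crypts, measured 151 in Cy3 and 994 in Cy5, 6.58-fold brighter in Cy5, at a log2 ratio of 2.72 (SD 0.23 between 2 probes). Kcne2, the gastric partner of the same pore, lay at -3.88, so the KCNE pair went to opposite channels with Kcnq1 at -1.30. Of 16 genes listed for chloride and bicarbonate secretion, 4 were Cy5-high, Kcne3, Slc9a3, Cftr and Ano1, and 1, Kcnq1, Cy3-high. Slc9a3 is the brush border exchanger that the absorptive list also holds, and the probes of Cftr disagreed, as given above. The bicarbonate transporter Slc4a7 had -0.89 (scanner error 0.17) and the potassium channel Kcnn4 0.69 (scanner error 0.20). The sodium, potassium and chloride cotransporter Slc12a2 had -0.38 (scanner error 0.19).

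Lectins and other defence proteins of mucosae had 6 of 24 members Cy5-high and 2 Cy3-high; the median was 0.32. The regenerating lectin Reg1 measured 204 in Cy3 and 916 in Cy5, 4.49-fold brighter in Cy5, at a log2 ratio of 2.17 (scanner error 0.27). Reg3b, which kills bacteria by binding their cell walls, measured 201 in Cy3 and 791 in Cy5, 3.94-fold brighter in Cy5, at a log2 ratio of 1.98 (scanner error 0.27), and its relative Reg3g had 0.95 (scanner error 0.33). Reg genes are close in sequence. Ido1, which breaks down tryptophan, measured 249.6 in Cy3 and 1049.7 in Cy5, a ratio of 2.07 (scanner error 0.26). Wfdc18, a small protein of the WAP family, had 2.05 (SD 0.00 between 2 probes), and serum amyloid Saa3 was at least 2.44-fold brighter in Cy5 with Cy3 not well above background. The secretory leukocyte protease inhibitor Slpi, also of the WAP family, went the other way with 1872 in Cy3 and 253 in Cy5, 7.41-fold brighter in Cy3, at a log2 ratio of -2.89 (scanner error 0.29). Lactoferrin (Ltf) was Cy3-high at -1.16 (SD 0.13 between 2 probes). Pigr, the transport receptor for secretory antibodies, had 0.62 (scanner error 0.22).

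Among the highest ratios of the array were also genes outside these groups. Phgr1, a small protein of gut epithelium, measured 617 in Cy3 and 3752 in Cy5, 6.08-fold brighter in Cy5, at a log2 ratio of 2.60 (scanner error 0.27). Samd5 had 2.16 (scanner error 0.32), and a transcript listed as ENSMUST00000076648 had 2.76 (SD 0.37 between 2 probes). A clone listed as AK051479 was at least 3.25-fold brighter in Cy5 with Cy3 not well above background. At the low end, Eprn, listed on the array as a clone name, measured 3082 in Cy3 and 105 in Cy5, 29.5-fold brighter in Cy3, at a log2 ratio of -4.88 (scanner error 0.46), and the growth factor Gdf9, best known from the oocyte, 821 in Cy3 and 58.8 in Cy5, a ratio of -3.80 (scanner error 0.50).

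Genes of simple epithelium lay opposite to the squamous genes. Of 25 keratin and junction genes of simple epithelium, 5 were Cy5-high, none Cy3-high; the median was 0.27. Claudin 7 (Cldn7) measured 583 in Cy3 and 1994 in Cy5, 3.42-fold brighter in Cy5, at a log2 ratio of 1.77 (scanner error 0.22). Claudin 2 (Cldn2), which forms cation pores in leaky epithelium, measured 165 in Cy3 and 555 in Cy5, 3.37-fold brighter in Cy5, at a log2 ratio of 1.75 (scanner error 0.30). Krt7 had 1.50 (SD 0.25 between 2 probes) and Krt19 1.29 (scanner error 0.19). The adhesion protein Epcam gave 691 in Cy3 and 1498 in Cy5, a ratio of 1.12 (scanner error 0.19). Krt8 and Krt18, the keratin pair common to simple epithelia, had 0.34 (saturated in Cy5) and 0.43, and E-cadherin (Cdh1) had 0.21 (scanner error 0.16). Across the keratin family 12 genes were Cy3-high, Krt13 among them with the reservation above, and 3, Krt7, Krt19 and Krt20, were Cy5-high.

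Progenitor and Wnt pathway genes showed small differences. Prom1, a membrane protein of gut progenitors, was Cy5-high with 611 in Cy3 and 1758 in Cy5, a ratio of 1.52 (SD 0.35 between 2 probes). Krt19 and Epcam were the other 2 of 20 progenitor genes past 2-fold, and the list median was -0.05, turning to 0.18 with median centring. Of 20 Wnt target genes, 2 were Cy5-high, Sp5 at 1.09 (scanner error 0.38) and Axin2, the feedback inhibitor of the pathway, at 1.02 (scanner error 0.44). Nkd1, another feedback inhibitor, had 0.97 (scanner error 0.32), and cyclin D1 (Ccnd1) 0.96 (scanner error 0.19). The Wnt list had a median of 0.22, with 13 of 20 above 0 against 50.2% of all genes. The transcript of the pathway's effector, beta-catenin (Ctnnb1), stood at 0.75 (SD 0.17 between 3 probes).

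Transcription factors of the gut mostly lay within 2-fold. Onecut2, a factor of foregut endoderm, had 130.0 in Cy3 and 543 in Cy5 and a mean ratio of 2.06 (SD 1.43 between 4 probes). Nkx6-3, a factor of the antral endocrine and mucous lineage, measured 475 in Cy3 and 1644 in Cy5, 3.46-fold brighter in Cy5, at a log2 ratio of 1.79 (scanner error 0.22). Trp63 and Bhlha15 were Cy3-high, as given above. Pitx1 had -0.98 (scanner error 0.18), Barx1, which patterns the stomach, -0.76 (scanner error 0.63), and Elf3, an epithelial factor, 0.72 (scanner error 0.18). Of 31 factors, 18 had ratios above 0, and the median was 0.07.

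Genes of cell division lay almost entirely on the Cy5 side. Of 34 DNA replication genes, 33 had ratios above 0 and 9 were at least 2-fold Cy5-high, with a median of 0.76. Of 36 mitosis genes, 36 had ratios above 0 and 9 were Cy5-high, with a median of 0.69. None of either list was Cy3-high, and 50.2% of all genes lay above 0. The Cy5-high count of the replication list lay between 7 and 21 with the other settings and that of the mitosis list between 9 and 22, and the lowest medians were 0.66 and 0.69.

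The replication genes past 2-fold ran along the steps of S phase. Mcm4, a subunit of the helicase that opens DNA, measured 366 in Cy3 and 962 in Cy5, 2.63-fold brighter in Cy5, at a log2 ratio of 1.39 (scanner error 0.21). Its partners Mcm5 and Mcm7 had 1.07 and 1.02. Rrm1 and Rrm2, the subunits of the reductase that makes deoxynucleotides, had 1.33 (scanner error 0.22) and 1.10 (scanner error 0.28). Prim1 and Pola1, of the primase complex, had 1.32 (scanner error 0.27) and 1.01 (scanner error 0.43). Pcna, the sliding clamp, measured 798 in Cy3 and 1734 in Cy5, 2.17-fold brighter in Cy5, at a log2 ratio of 1.12 (scanner error 0.19), and Chaf1b, which loads histones behind the fork, had 1.08 (scanner error 0.28). The lowest 4 members of the list were Ccne1, a cyclin of S phase entry, at 0.24 (SD 0.06 between 2 probes), Rfc4, of the clamp loader, at 0.20 (scanner error 0.18), Ccne2, the other cyclin E gene, at 0.0056 (scanner error 3.69), and Orc1, of the origin recognition complex, at -0.11 (scanner error 0.70).

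In the mitosis list the proliferation antigen Mki67 measured 339 in Cy3 and 979 in Cy5, 2.89-fold brighter in Cy5, at a log2 ratio of 1.53 (SD 0.28 between 2 probes). Incenp measured 489 in Cy3 and 1399.8 in Cy5, 2.86-fold brighter in Cy5, at a log2 ratio of 1.52 (scanner error 0.21). Incenp, Aurkb (1.32 (scanner error 0.39)) and Birc5 (1.13 (scanner error 0.19)) are subunits of the chromosomal passenger complex, and all 3 were Cy5-high. The spindle factor Tpx2 had 1.52 (scanner error 0.50), the ubiquitin-conjugating enzyme Ube2c 1.14 (scanner error 0.25), and the kinesins Kif23 and Kif20a 1.13 (SD 0.01 between 2 probes) and 1.12 (SD 0.12 between 2 probes). Bub1 was just past the threshold at 1.0, and its scanner software's ratio was 2.25 (scanner error 0.69). The mitotic kinases Plk1 and Aurka (0.93 and 0.84), Cdc20 (0.83), cyclins Ccnb1 and Ccnb2 (0.81 and 0.82) and the topoisomerase Top2a (0.58) stayed under 2-fold, all above 0.

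**Figure D4:**
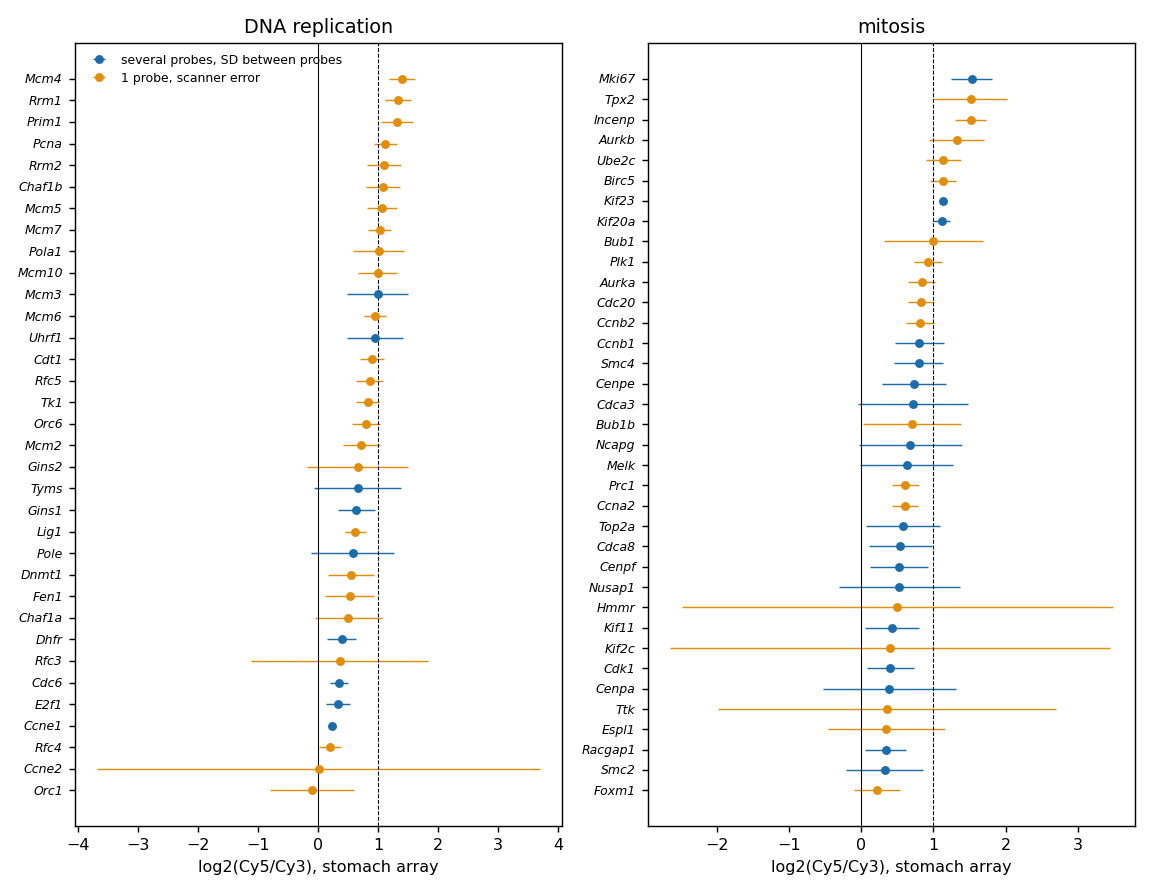
Log2(Cy5/Cy3) of the 34 DNA replication and 36 mitosis genes on the stomach array (horizontal axes, log2 units), 1 row per gene, blue where bars are the SD between probes and orange where they are the scanner software's error of 1 probe, with a dashed line at 2-fold Cy5-high. The scanner error belongs to the scanner software's own ratio, not to the ratio plotted. All mitosis genes and 33 of 34 replication genes lie above 0, and errors exceed the ratio for dim genes such as Hmmr, Kif2c and Ccne2.

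Since these genes lay on 1 side together, the 100 bases before the annotated start are shown for 2 replication genes and 2 mitosis genes whose stretch holds the letters searched. They come from the same RefSeq windows on GRCm38.p6, 5′ to 3′ on the gene's strand. Capitals mark the CCAAT box, read on either strand. In Ube2c and Cdc20 they also mark the cell cycle genes homology region, an element known from genes of late cell cycle phases, searched on either strand as the letters TTTGAA.
Rrm1: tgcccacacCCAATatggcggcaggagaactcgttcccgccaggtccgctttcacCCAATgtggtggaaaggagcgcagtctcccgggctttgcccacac
Mcm5: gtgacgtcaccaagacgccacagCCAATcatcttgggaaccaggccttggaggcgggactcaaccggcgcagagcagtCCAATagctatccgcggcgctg
Ube2c: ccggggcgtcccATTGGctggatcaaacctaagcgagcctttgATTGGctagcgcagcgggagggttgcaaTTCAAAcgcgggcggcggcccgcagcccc
Cdc20: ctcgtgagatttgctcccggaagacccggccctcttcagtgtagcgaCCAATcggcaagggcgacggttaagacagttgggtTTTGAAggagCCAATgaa
Rrm1 lies at chr7:102441595-102441694, Mcm5 at chr8:75109409-75109508 and Ube2c at chr2:164769829-164769928, all on the plus strand, and Cdc20 at chr4:118437344-118437443 on the minus strand. Each of the 4 stretches holds CCAAT at 2 places, and those of Ube2c and Cdc20 hold TTTGAA once. Over the whole windows and both strands, CCAAT was present in 25 of the 29 mitosis genes with a window (86.2%), in 17 of 28 replication genes (60.7%) and in 41.1% of all genes with one. TTTGAA was present in 23 of 29 mitosis genes (79.3%), in 3 of 28 replication genes (10.7%) and in 20.2% of all. The replication and mitosis lists thus differ in the second element, while their ratios overlap. Among all 2-fold genes with a window, CCAAT was present in 47.0% of the Cy5-high and 43.3% of the Cy3-high genes. TTTGAA was present in 19.5% and 15.5%, both below the 20.2% of all genes with a window.

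Of a list of 20 genes of uracil in DNA and its repair, 16 had ratios above 0 and 1, Pcna, was Cy5-high, at 1.12; the median was 0.21. The uracil glycosylase Ung, which removes uracil from DNA, stood at 0.37 (scanner error 0.25), and Msh6, which recognises mismatched bases, at 0.38 (scanner error 0.19). Of 24 gastric cancer genes, none passed 2-fold in either direction, where 2.29% of all genes did, and 2 were Cy5-high with median centring. Trp53 had a ratio of -0.28 (SD 0.09 between 2 probes), Myc -0.43 (SD 0.22 between 3 probes) and Erbb2 0.35 (SD 0.07 between 2 probes). Among 22 genes of p53 and cell cycle arrest, the cyclin-dependent kinase inhibitor Cdkn1c was Cy3-high at -1.69 (scanner error 0.27) and the cell death gene Pmaip1 (Noxa) Cy5-high at 1.09 (scanner error 0.20), and Cdkn1a stood at 0.42 (scanner error 0.24). Array values measure transcript levels and carry no information on mutations.

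Immune cell markers were mostly near 0 and dim. Of 25 T and NK cell genes none passed 2-fold (3 with the scanner software's ratios), with a median of 0.08 that turned to -0.07 with median centring, and the T cell receptor chain Cd3e gave 373 in Cy3 and 323 in Cy5, a ratio of -0.21 (SD 0.04 between 2 probes). None of 15 B and plasma cell genes passed 2-fold either, with a median of 0.00 (-0.03 with median centring). As 2.29% of all genes passed 2-fold, none in lists of this size is near the general share. The pan-leukocyte marker Ptprc had 0.35 (SD 0.19 between 3 probes). Macrophage genes had 1 of 19 on each side, Lyz2 and Gpnmb, the latter at -1.57 (scanner error 0.37). Of 12 neutrophil genes, S100a9 had -1.93 (scanner error 0.25) and Ltf was Cy3-high too, yet both are also made by squamous or secretory epithelium. Among 10 mast cell genes measured, the mucosal proteases Mcpt1 and Mcpt2 were Cy5-high at 1.17 (scanner error 0.41) and 1.54 (scanner error 0.74). Hdc, named above among the endocrine products, was the 1 Cy3-high member, at -2.13 (scanner error 0.38). The mast cell list had its median at 0.09. Fcer1a, the antibody receptor chain of mast cells, stood at 0.10 (scanner error 0.64).

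Antigen presentation genes leaned to Cy5. Of 19 measured, 15 had ratios above 0 and 2 were Cy5-high, with a median of 0.22. H2-DMb1, which loads peptides onto class II molecules, measured 308 in Cy3 and 652 in Cy5, 2.12-fold brighter in Cy5, at a log2 ratio of 1.08 (scanner error 0.22). The class II invariant chain Cd74 measured 884 in Cy3 and 1856 in Cy5, 2.10-fold brighter in Cy5, at a log2 ratio of 1.07 (scanner error 0.19). The class II chain H2-Ab1 had 0.90 (SD 0.28 between 4 probes) and the immunoproteasome subunit Psmb8 0.79 (SD 0.10 between 2 probes). Interferon response genes went both ways, with Gbp2 (1.09 (scanner error 0.20)) and Cxcl9 (1.01 (scanner error 0.80)) Cy5-high and Ifi27 (-2.21 (SD 0.82 between 2 probes)) and Oas2 (-1.33 (scanner error 0.26)) Cy3-high among 26, and the median of -0.06 turned to 0.06 with median centring. Of 26 chemokines and cytokines, Cxcl12 was Cy3-high at -1.11 (SD 0.83 between 2 probes), and Il33, an alarm cytokine of epithelial nuclei, had 0.95 (scanner error 0.18).

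Stromal genes showed no member past 2-fold in 27 matrix and fibroblast genes and in 24 endothelial genes, against 2 of each list with the scanner software's ratios. Over all genes 2.29% passed 2-fold, so lists of this size would hold few such genes or none in any case. The matrix median was 0.09, with Ccn1 the lowest at -0.55 (scanner error 0.58) and Pdgfrb, the receptor of pericytes, the highest at 0.41 (scanner error 0.28). The endothelial median was -0.09, turning to 0.09 with median centring, and the vascular growth factor receptor Kdr had -0.87 (scanner error 0.21). Of 19 matrix protease genes, stromelysin 2 (Mmp10) was Cy5-high at 1.01 (scanner error 0.42).

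The oxidative phosphorylation and lipid synthesis lists lay on opposite sides with the loess curve, and both medians were above 0 with median centring. Of 30 oxidative phosphorylation genes, 25 had ratios below 0 and 3 were Cy3-high, with a median of -0.34 that turned to 0.40 with median centring. The cytochrome oxidase subunits Cox6c and Cox6a1 had -1.19 (scanner error 0.18) and -1.20 (scanner error 0.18), the latter 0.067 with median centring, and Ndufa4 had -1.01 (scanner error 0.18). Lipid and sterol synthesis genes had 21 of 23 above 0 and 2 Cy5-high; the median was 0.37. The desaturase Scd2 measured 1079 in Cy3 and 2907 in Cy5, 2.69-fold brighter in Cy5, at a log2 ratio of 1.43 (scanner error 0.20). The malic enzyme Me1, which supplies reducing power for fat synthesis, had 1.37 (SD 0.17 between 2 probes). Squalene epoxidase (Sqle) stood just under 2-fold at 0.98 (scanner error 0.19).

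Oxidant defence genes had 3 members on each side among 29, with a median of 0.38. The glutathione transferase Gsta3 had 1.80 (SD 0.21 between 2 probes), the aldo-keto reductase Akr1b8 1.68 (scanner error 0.21) and the peroxiredoxin Prdx1 1.10 (scanner error 0.18). On the Cy3 side were metallothionein 2 (Mt2), at 29542 in Cy3 and 7527 in Cy5, a ratio of -1.97 (scanner error 0.22), catalase (Cat) at -1.20 (scanner error 0.27) and Aldh3a1 at -1.13 (scanner error 0.27). With median centring 16 members were Cy5-high, none Cy3-high. None of 24 glycolysis and hypoxia genes passed 2-fold, with a median of -0.17, whereas 5 were Cy5-high with median centring and the median was 0.32. None of 20 genes of the unfolded protein response passed 2-fold either, and 2 were Cy5-high with median centring. Over all genes 2.29% passed 2-fold. Of 21 immediate early and heat shock genes, 3 were Cy3-high, Egr1 at -1.12 (scanner error 0.21), Nr4a1 at -1.04 (scanner error 0.19) and Hspb1 at -1.16 (SD 1.48 between 2 probes).

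Related genes that went to opposite channels appeared in several families besides the keratins and KCNE subunits. Galectins Lgals3, Lgals4, Lgals6 and Lgals12 were Cy5-high, between 1.10 and 1.95, and Lgals2 (-1.43 (scanner error 0.19)) and Lgals7 were Cy3-high. Lgals4 and Lgals6 are near-identical, so their separate values are uncertain. The retinol dehydrogenases Rdh10 and Rdh7 had 1.0 (SD 0.07 between 2 probes) and -2.80 (scanner error 0.36). The acyl-CoA synthetases Acsl3 and Acsl1 had 1.14 (scanner error 0.22) and -1.21 (SD 0.67 between 3 probes), the monoacylglycerol acyltransferases Mogat2 and Mogat1 1.62 (scanner error 0.24) and -1.47 (SD 0.34 between 3 probes), and the peroxiredoxins Prdx1 and Prdx5 1.10 and -1.11. The anion transporters Slc26a2 and Slc26a9 had 1.24 (scanner error 0.29) and -1.26, and the calcium-binding proteins S100a10 and S100a9 1.66 and -1.93.

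The precision of these values rests on probes and spots of 1 array. Probes printed at several places had a median SD of 0.06 between spots, over 40 probes. Different probes of a gene disagreed more: over 8053 genes their pooled SD was 0.26. Of 126 genes past 2-fold with several probes, 57 had every probe past 2-fold in the same direction and 3 had probes of both signs. Just inside the threshold lay Bub1 at 1.0005 and Rbpms2 at -1.0022, and just outside it Ddx39a at 0.9996 and Klk8 at -0.9994, so membership at the edge is decided by differences far below the SD between spots.

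The liver array offered a second tissue pair measured in the same way, with its dyes labelled in the same order. Past 2-fold lay 39 of its 25601 genes in Cy5 (0.152%) and 18 in Cy3 (0.0703%). Of 564 stomach 2-fold genes measured there, 443 lay within 0.3 of 0 on the liver array. The 5th and 95th percentiles of the log2 ratio over all liver array genes were -0.29 and 0.30, so most genes of any kind lay in that band. Of 24763 genes measured on both arrays, 564 passed 2-fold on the stomach array and 55 on the liver array. On 13 genes both arrays passed 2-fold, 5 in the same channel and 8 in opposite channels. Slpi had -2.89 on the stomach array and -1.38 on the liver array. Cyp2f2, an enzyme that oxidises foreign compounds, had -2.68 and -1.33, Rbp4, a carrier of retinol in blood, -1.13 and -1.33, and Selenbp1 -1.07 and -1.16. The medians of the replication and mitosis lists were 0.76 and 0.69 on the stomach array and 0.03 and 0.06 on the liver array. Those of the squamous keratin and parietal lists were -1.41 and -1.0 in stomach and 0.01 and 0.06 in liver, a tissue that holds neither cell type. With 1 array per organ, a difference between the organs could not be tested.

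**Figure D5:**
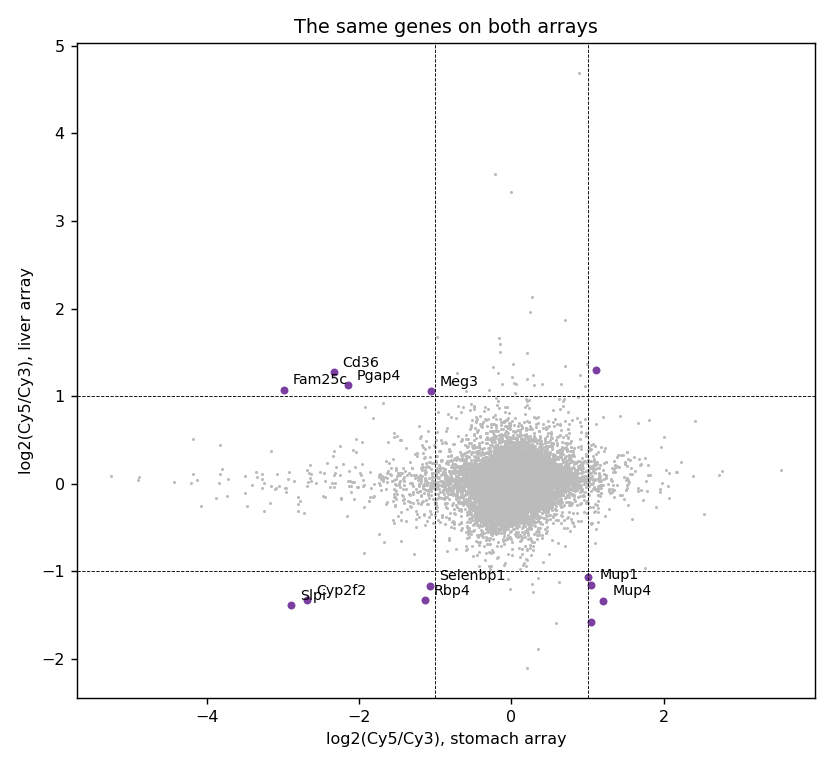
Log2(Cy5/Cy3) of 24763 genes on the stomach array (horizontal axis) and on the liver array (vertical axis), 1 grey point per gene, with dashed lines at 2-fold and the 13 genes past 2-fold on both arrays in purple. The spread along the stomach axis is wider, from -5.26 to 3.54 with saturated spots at their scanned value, and Cd36, Fam25c, Pgap4, Meg3 and Mup genes sit in opposite channels on the arrays.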

How the data were processed

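The stomach array was 1 two-colour hybridisation of 2 tissues of 1 mouse, scanned and read with Agilent Feature Extraction 8.5.1.1, per the submitters' processing notes. Per the file headers, the deposited intensity columns hold each spot's mean pixel intensity and local background median in both channels, not normalised, and the deposited log10 ratio is Cy5 over Cy3 of signals corrected by the scanner software for background and dye. The scanner software's error of that ratio (a score on the log10 scale, printed here on the log2 scale) and its p-value per spot were deposited by the authors as well, and cover the measurement error of 1 spot. The error is thus not that of the loess-normalised ratio it is printed beside. The authors' deposited table of regulated spots gives log10 ratios, and its rule of selection and the build of the probe coordinates are not given in the sources used here.

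Backgrounds were corrected by normexp with offset 50, and ratios normalised by loess within the array with control spots at weight 0 (limma 3.58.1, R 4.3.3), which was tested on simulated data. With this offset the ratio of a dim gene is understated. Signals in the text were scaled between the stomach and liver arrays (Aquantile). Flagged spots were left out, and a probe was kept if either channel was well above background and either was unsaturated. Probes of the same gene were averaged. Later steps used Python 3.11.15. Of 41174 probes, 23082 were named by accession, 6582 by symbol and 3060 by synonym from a RefSeq table of GRCm38.p6, and 8450 kept the file's name.

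With 1 array no test was made, and genes were counted at 2-fold. Members and the 48 gene lists were chosen with earlier results of these data known. Named are the 15 highest and 15 lowest genes with a scanner p under 0.001, genes with the largest lower bounds, list members past 2-fold (at least 3 per list), defining markers and related genes that went to opposite channels. Other members named within 2-fold, the windows and the sequences shown were chosen after their values were seen. The alternatives changed the offset, the normalisation, the filters, the choice of probe, the spots left out and the fold threshold. Scanner values of the lung sample were not used here, some genes and the identity of the transgene are not reported here, and 0 columns of per-sample values went unused for want of a sample.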

Additional observations from a re-analysis of the deposited data

Results flagged for a closer look

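The stomach and liver arrays measured the same contrast, tumour against nontumour tissue, in 2 organs, and 8 genes were at least 2-fold in one channel on the stomach array and at least 2-fold in the other channel on the liver array. With 1 array per organ this difference was not tested, and it does not depend on which channel held the tumour as long as the dyes run the same way on both arrays, as the labels state. The 8 genes are among 13 past 2-fold on both arrays, of 24763 measured on both, and 5 of the 13 were in the same channel.

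Cd36, a fatty acid transporter of fat, muscle and blood vessel cells, had a log2(Cy5/Cy3) of -2.33 in stomach, with signals of 414 in Cy3 and 82.2 in Cy5, and 1.28 in liver, with 187 and 453. Fam25c had -2.99 in stomach and 1.08 in liver. Pgap4, which modifies membrane anchors of proteins, had -2.15 in stomach and 1.13 in liver. Meg3, a maternally expressed noncoding RNA, had -1.06 in stomach and 1.06 in liver. These 4 genes were Cy3-high in stomach.

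The other 4 were Cy5-high in stomach and Cy3-high in liver. Mup1 and Mup4 encode major urinary proteins, which liver secretes. Mup4 had 1.21 in stomach, with signals of 286 in Cy3 and 661 in Cy5, and -1.34 in liver, with 19414 and 7694. Mup1 had 1.04 and -1.15. LOC620807 had 1.01 and -1.07, and the probe gene listed as NAP102507-1 had 1.04 and -1.58. Mup genes are near-identical copies, so probes of Mup1 and Mup4 could share transcripts. LOC620807 lies in the same window as Mup1, from 60 to 61 Mb of chromosome 4 in the file's coordinates. Whether these 4 entries measure separate transcripts was not tested.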

How the results depend on the processing

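The 2-fold counts of 221 Cy5-high and 359 Cy3-high genes became 358 and 508 with a normexp offset of 16, 1092 and 1050 with the scanner software's ratios, 1017 and 235 with median centring and no loess, and 40 and 146 at 3-fold. They stayed between 216 and 303 and between 349 and 449 with another filter on background, the brightest probe of each gene, flagged spots kept or saturated spots left out. Under median centring the ratio of Cox6a1 turned to 0.067 and that of Tff1 to 0.29, and the brightest probe turned Krt13 to 0.32; the cause was not tested. Of 181 named genes past 2-fold, 180 stayed past it with offset 16 and with the scanner software's ratios, and 151 with median centring. Median centring turned the sign of 11 of the 48 list medians, the scanner software's ratios of 3, the brightest probe of 5 and the filter on both channels of 1. The median of all genes moved by at most 0.06 under any of the 8 settings. Both the loess curve and median centring hold the ratios around 0, so this small move is no check on the results. No paired analysis was possible because there was 1 array per organ. Dim genes limit the comparison: 1669 genes were not well above background in Cy3 on any probe and 364 in Cy5, and for these only a bound on the fold can be had.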
